A study of Mus musculus with 8 samples.

Results

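The 9 genes described here, Cdkn1a, Ccng1, Mdm2, Bax, Bbc3, Trp53inp1, Phlda3, Sesn2 and Gdf15, are targets of the transcription factor p53 and genes of growth arrest. They were taken by name from a list, and all 9 had probes on the array, out of 18217 genes that could be named. RNA was from the kidneys of 8 mice aged 8 weeks on a mixed 129Sv/J and C57BL/6J background, and each kidney RNA was read with Cy3 on 1 Agilent array. The 4 NEKO mice (Keap1-/-::Nrf2Flox/Flox::K5-Cre; replicates 2, 3, 5 and 6) lacked Keap1 throughout the body, and K5-Cre, driven by the Keratin5 promoter, removes Nrf2 in squamous epithelium. The 4 control mice were littermates with 1 intact Keap1 allele, of which replicates 4, 7 and 8 were K1Cre (Keap1+/-::Nrf2Flox/Flox::K5-Cre) and replicate 1 was K1 (Keap1+/-::Nrf2Flox/Flox), without Cre. All 8 mice therefore carried floxed Nrf2, and the loss of Keap1 was not confined to the kidney. Each group held 2 females and 2 males, and since 1 slide carried all females and the other all males, sex and slide cannot be told apart.

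The p53 protein accumulates after DNA damage and other stresses and switches on genes that halt the cell cycle, repair DNA or kill the cell. Its activity is held down by Mdm2, a ubiquitin ligase that is itself a p53 target, which closes a feedback loop. The pathway touches the KEAP1-NRF2 system at several points: p21, the product of Cdkn1a, can bind NRF2 and shield it from KEAP1, and Sestrin 2 promotes the removal of KEAP1 by autophagy. Sesn2 and Gdf15 also respond to ATF4, the transcription factor of the integrated stress response. In the kidney, Cdkn1a and Gdf15 are known to rise in tubules after injury.

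The promoters of these genes are described first. As the genes were listed for being p53 targets, p53 sites near their starts are close to what the list was chosen on, and the counts are a description only. RefSeq windows of 250 bases before to 50 after a start (GRCm38.p6) were matched for 8 of the 9 genes, Trp53inp1 being the other, and gave 12 windows in all. A p53 half-site, searched on both strands with palindromic matches counted once, was present in 4 of the 12 windows, 1 each of Cdkn1a, Mdm2, Ccng1 and Bax, and in 8.36% of 32851 mouse windows. The core of the antioxidant response element bound by NRF2 (TGACNNNGC) was present in 2 of the 12 windows, 1 each of Cdkn1a and Sesn2, and in 12.39% of mouse windows. Neither the AP-1 site (TGANTCA, in 7.81% of windows) nor the ATF4 composite element core (TGATGNAA, in 3.97%) was found in any of the 12 windows. The windows that follow were picked because they belong to the gene that was called, to both genes that were lower at an unadjusted p under 0.05, and to the gene with an antioxidant response element upstream of its start. Capitals mark motif matches and the rest is in lower case.
Gdf15, chr8:70632407-70632706, minus strand, with no match to any of the motifs: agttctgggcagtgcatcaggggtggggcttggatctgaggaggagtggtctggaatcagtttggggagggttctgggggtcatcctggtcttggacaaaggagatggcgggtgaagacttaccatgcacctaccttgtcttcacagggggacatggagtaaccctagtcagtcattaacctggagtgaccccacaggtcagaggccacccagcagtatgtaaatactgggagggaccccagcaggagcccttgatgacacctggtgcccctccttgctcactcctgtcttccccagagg
Cdkn1a, chr17:29090729-29091028, plus strand, with p53 half-sites that begin at positions -73 and -51 from the start: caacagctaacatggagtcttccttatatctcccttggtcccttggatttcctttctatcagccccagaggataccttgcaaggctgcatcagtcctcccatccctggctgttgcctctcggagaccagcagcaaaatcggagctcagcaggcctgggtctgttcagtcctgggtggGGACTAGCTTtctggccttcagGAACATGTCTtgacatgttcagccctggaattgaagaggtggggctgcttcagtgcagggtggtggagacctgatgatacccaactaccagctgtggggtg
Ccng1, chr11:40755237-40755536, minus strand, with a p53 half-site that begins at position -185: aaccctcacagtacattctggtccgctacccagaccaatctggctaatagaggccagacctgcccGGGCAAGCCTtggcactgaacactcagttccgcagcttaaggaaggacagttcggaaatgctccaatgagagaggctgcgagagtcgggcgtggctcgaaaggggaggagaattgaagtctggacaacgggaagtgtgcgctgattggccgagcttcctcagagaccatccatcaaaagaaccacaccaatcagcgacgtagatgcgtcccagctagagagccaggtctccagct
Sesn2, chr4:132510407-132510706, minus strand, with the antioxidant response element core that begins at position -36: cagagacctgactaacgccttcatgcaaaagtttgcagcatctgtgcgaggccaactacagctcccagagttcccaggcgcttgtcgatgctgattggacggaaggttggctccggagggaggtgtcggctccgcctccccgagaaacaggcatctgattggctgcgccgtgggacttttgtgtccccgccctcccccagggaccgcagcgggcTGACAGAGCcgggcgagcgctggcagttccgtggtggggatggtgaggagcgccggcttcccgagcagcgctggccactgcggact
A second Cdkn1a window, at chr17:29093519-29093818, held the antioxidant response element core at position 28 from its start and no p53 half-site, so the motifs lay beside different starts of the gene. The second window of Gdf15 and the 3 windows of Bbc3 held none of the motifs. A match describes these letters only and says nothing of binding.

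Levels are given as log2 processed signal after subtracting each array's 75th percentile, a scale on which a level of 0 is as bright as that percentile, and differences are NEKO minus control on the same scale. Levels of different genes come from different probes and are not compared. The share of probes well above background ran from 61.8% to 65.7% over the arrays, no probe was saturated, and all 12 probes of the 9 genes were well above background on all 8 arrays. The labels fitted the deleted gene, Keap1, which lay between 1.77 and 1.92 in the control mice and between 0.06 and 0.45 in the NEKO mice. The 9 proximal tubule, 8 thick ascending limb and distal tubule and 8 collecting duct markers all passed the filter on dim probes. As 13570 named genes passed it, all 8 urothelium markers among them, this does not test the tissue label. The groups were set against each other in limma, with a term for sex, over 19593 genes and unnamed transcripts, and called genes are those with an adjusted p under 0.05.

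Of the 9 genes, 1 was called higher in NEKO kidneys and none was called lower. The gene that rose was Gdf15. In all, 0.097% of the 19593 features were called higher and 0.128% lower. At an unadjusted p under 0.05, Gdf15 again was the 1 gene higher, and Cdkn1a and Ccng1 were the 2 genes lower, while 7.37% of all features were higher and 10.6% lower by that rule. In the direction of the fitted difference, 6 genes were positive and 3 negative, with a median of 0.03 against -0.03 over all features. The median size of the difference was 0.21 for the 9 genes and 0.15 over all features. For the other 8 genes the fitted differences ran from -0.74 (Cdkn1a) to 0.29 (Sesn2), and none passed the test, which does not show that they were the same in both groups.

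**Figure D1:**
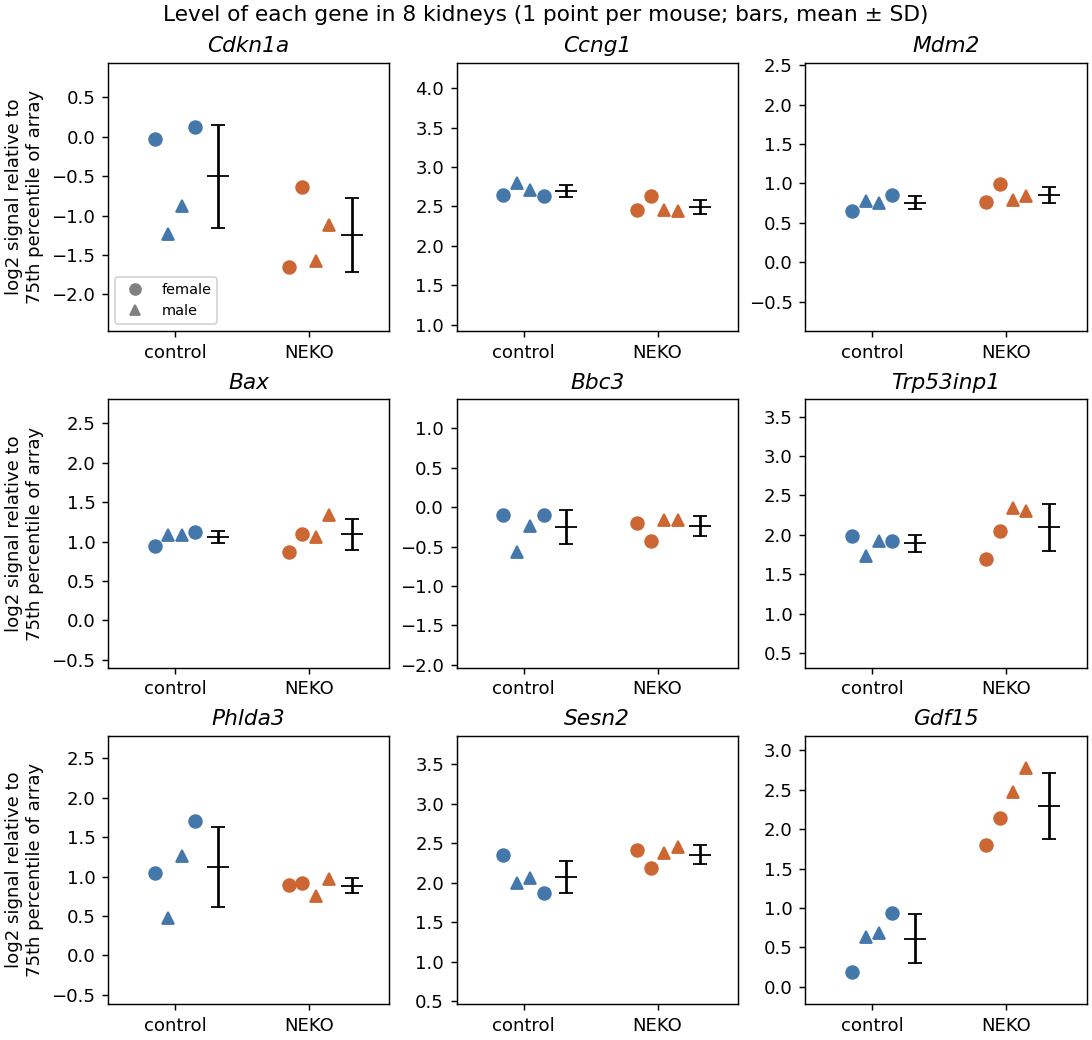
Level of each of the 9 genes (y axis, log2 signal minus the array's 75th percentile; each panel spans the same number of log2 units) in the 4 control and 4 NEKO kidneys, with circles for females, triangles for males and bars for the mean ± SD. The NEKO values of Gdf15, from 1.80 to 2.77, all lie above the control values, from 0.19 to 0.94, whereas the groups overlap or nearly touch in the other panels.

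Gdf15 (NM_011819) encodes growth differentiation factor 15, a secreted hormone of cell stress that lowers appetite through a receptor in the hindbrain. Its level was 0.19 and 0.94 in the control females, 0.63 and 0.68 in the control males, 1.80 and 2.15 in the NEKO females and 2.47 and 2.77 in the NEKO males. The lowest NEKO mouse was above the highest control. The group means were 2.30 ± 0.42 (SD, n = 4) in NEKO and 0.61 ± 0.31 (SD, n = 4) in control kidneys. The log2 difference was 1.69 (standard error 0.20, adjusted p = 0.041 from limma), a 3.22-fold rise with a 95% interval of 2.30 to 4.50. Features with every NEKO array above every control array made up 3.88% of all those tested, and Gdf15 was the 1 of the 9 genes among them (p = 0.0286 by an exact two-sided permutation test, the smallest that 4 against 4 allow). The rise was seen in both sexes, with 1.41 in females and 1.97 in males.

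The size of the Gdf15 rise was steadier than its call. When the mice were omitted one by one the difference stayed between 1.57 and 1.89, but the adjusted p ran from 0.026 to 0.148 and passed only without control replicate 8. It did not pass without control replicate 1 (0.10), 4 (0.14) or 7 (0.15), or without NEKO replicate 2 (0.052), 3 (0.085), 5 (0.13) or 6 (0.12). Whole kidney RNA was measured, so a rise in Gdf15 per cell and a larger share of cells that express it cannot be told apart. Beside it, none of the 9 macrophage markers tested was called, 5 of 9 had a positive difference and 1, Lyz2, was higher at an unadjusted p under 0.05 (1.38, with 0.08 in females and 2.67 in males). Summed levels add the signals of a list before the log2 is taken, so its brightest probes weigh most. The summed macrophage level ran from 2.65 to 3.13 in control and from 2.48 to 3.38 in NEKO kidneys. Of 8 neutrophil markers 3 were tested, while 1 had no named probe and 4 were too dim. S100a8 (1.81, with 0.60 in females and 3.01 in males) was higher at an unadjusted p under 0.05 but not called. The same held for S100a9 (1.64, with 0.46 in females and 2.81 in males), and Mpo was at 0.05. S100a8 was dim, at -6.43 in control replicate 1, where the dimmest probe well above background was at -5.45. The summed neutrophil level ran from -2.16 to -0.92 in control and from -1.50 to 2.74 in NEKO kidneys. Of 10 markers of tubular injury, 4 were higher and 1 lower at an unadjusted p under 0.05, none was called, and the median difference was 0.45. Their summed level ran from 7.18 to 8.09 in control and from 7.40 to 8.02 in NEKO kidneys. Much of that sum was Spp1, whose own difference was -0.0031. Of 8 urothelium markers, 6 were higher at that threshold and none was called, with a summed level from 0.40 to 1.72 in control and from 1.47 to 2.66 in NEKO kidneys. Of 9 fibroblast and smooth muscle markers, 8 had a positive difference, 2 of them, Pdgfrb (0.48) and Pdgfra (0.57), at an unadjusted p under 0.05, and the summed level ran from 5.62 to 6.14 in control and from 5.56 to 6.83 in NEKO kidneys. Of 8 thick ascending limb and distal tubule markers, 4 were lower at that threshold and none was called, with a summed level from 8.42 to 8.76 in control and from 7.97 to 8.62 in NEKO kidneys. Of 8 collecting duct markers, 7 had a negative difference and 1 a positive one. The 2 lower by the same rule were Atp6v1g3 (-0.90) and Slc26a4 (-2.07), and none was called. Aqp2 was at -0.22, Aqp3 at -0.10 and Avpr2 at 0.26. The summed level, to which Slc26a4 contributes, ran from 6.21 to 6.57 in control and from 5.28 to 6.06 in NEKO kidneys. Of 9 proximal tubule markers, 2 were higher and 1 lower at an unadjusted p under 0.05, with a median difference of 0.02. None of 8 glomerulus and endothelium markers passed that threshold, and their median was 0.21. Of 7 lymphocyte markers tested, 1, Cd8a (-1.28), was lower by it and none higher. No marker of these 3 lists was called. The part of these cells in the Gdf15 result was not tested.

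Among the genes of arrest, Cdkn1a (NM_007669) encodes p21, the inhibitor of cyclin-dependent kinases through which p53 stops the cycle before DNA replication. Its level was -0.03 and 0.12 in the control females, -1.23 and -0.88 in the control males, -1.66 and -0.63 in the NEKO females and -1.57 and -1.12 in the NEKO males. The control females stood above all of the other mice, and the control males fell within the range of the NEKO mice. The log2 difference was -0.74 (standard error 0.29, adjusted p = 0.24 from limma), with a 95% interval of -1.42 to -0.07. It was -1.19 within females and -0.30 within males, and the interaction of genotype and sex was 0.90 (standard error 0.49, adjusted p = 0.61 from limma). The estimate leaned on NEKO replicate 2, without which it was -0.45. Its direction held whichever mouse was omitted.

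Ccng1 (NM_009831) encodes cyclin G1, a p53 target that recruits a phosphatase to Mdm2. Its level was 2.64 and 2.63 in the control females, 2.80 and 2.71 in the control males, 2.45 and 2.63 in the NEKO females and 2.46 and 2.44 in the NEKO males. Every NEKO mouse lay below every control mouse, though NEKO replicate 3 and control replicate 8 were almost level. The fitted difference was -0.20 log2 units (standard error 0.08, adjusted p = 0.26 from limma), or 1.15-fold. Ccng1 was the 1 of the 9 genes with every NEKO array below every control array, a pattern shared by 5.39% of all features (p = 0.0286 by the same exact two-sided permutation test), and under normexp background correction its groups overlapped. A second, separate probe for the same transcript gave -0.36 (standard error 0.07, adjusted p = 0.096 in the limma fit over all probes), in the same direction in both sexes. On that probe the level ran from 0.90 to 1.24 in control and from 0.67 to 0.80 in NEKO kidneys.

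Mdm2 (NM_010786), the ligase that marks p53 for degradation, hardly varied between the mice on its brighter probe. Its level ran from 0.65 to 0.85 in control and from 0.77 to 1.00 in NEKO kidneys, and the groups overlapped. Its log2 difference was 0.09 (standard error 0.08, adjusted p = 0.58 from limma), and its 95% interval, from -0.11 to 0.29, left room for a rise of up to 1.22-fold. The second Mdm2 probe gave 0.19 (standard error 0.17) and varied more, from -2.99 to -2.62 in control and from -2.88 to -2.22 in NEKO kidneys. Trp53 itself, which encodes p53, had a difference of -0.60 (standard error 0.40, adjusted p = 0.46 from limma) on its brighter probe. That value rested on control replicate 4, at 2.23 against 0.59 to 0.67 in the control replicates 7 and 8 and 0.45 to 0.60 in NEKO mice, and the fit had no value for control replicate 1, whose spot was an outlier. Without replicate 4 the difference was -0.12. The second Trp53 probe gave -0.0063 (standard error 0.20), with opposite signs in the sexes, at -0.40 in females and 0.38 in males. Mdm4, the partner of Mdm2, gave -0.17, -0.27 and -0.21 on its 3 probes, the first from the probe used for the gene (adjusted p = 0.50 from limma).

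Of the 9 genes, Bax and Bbc3, both of cell death, had the smallest fitted differences. Bax (NM_007527), which forms pores in the outer mitochondrial membrane, ran from 0.95 to 1.12 in control and from 0.87 to 1.34 in NEKO kidneys, with a log2 difference of 0.03 (standard error 0.10, adjusted p = 0.87 from limma). Bbc3 (NM_133234) encodes PUMA, a BH3-only protein that frees Bax from its inhibitors, and ran from -0.57 to -0.10 in control and from -0.43 to -0.16 in NEKO kidneys. The control range of Bbc3 enclosed that of the NEKO mice. Its log2 difference was 0.014 (standard error 0.13, adjusted p = 0.97 from limma). The 95% intervals of these differences, from -0.20 to 0.27 for Bax and from -0.29 to 0.32 for Bbc3, are without correction for several genes and lie inside a 1.25-fold change in either direction.

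Trp53inp1 (NM_021897), a nuclear protein that promotes p53 phosphorylation and autophagy, had the lowest p of the 9 for an interaction of genotype and sex. Its level was 1.98 and 1.92 in the control females, 1.73 and 1.92 in the control males, 1.69 and 2.05 in the NEKO females and 2.34 and 2.31 in the NEKO males. The NEKO males stood above all of the other mice, whereas the NEKO females lay on both sides of the control females. It differed by -0.08 (log2) in females and 0.50 in males, and 0.21 over both (standard error 0.15, adjusted p = 0.47 from limma). The interaction was 0.58 (standard error 0.21), with an unadjusted p of 0.031 and an adjusted p of 0.39 from limma. The second probe gave 0.40 over both sexes (standard error 0.16, unadjusted p = 0.035 and adjusted p = 0.26 in the limma fit over all probes). It was positive in each sex, at 0.24 in females and 0.56 in males, so the difference between the sexes was narrower there. The sign in females therefore depended on the probe. By the interaction none of the 9 genes was called, at an adjusted p under 0.05, against 0.0153% of the 19592 features with an estimate.

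Phlda3 (NM_013750), a p53 target that competes with AKT for membrane lipids and so restrains its survival signal, spread more widely in the control than in the NEKO mice. It ran from 0.47, in control replicate 4, to 1.699, in control replicate 8, with 1.05 and 1.26 in the other controls, and it was 0.90 and 0.92 in the NEKO females and 0.76 and 0.97 in the NEKO males. All 4 NEKO mice fell within the range of the controls, and the standard deviation was 0.09 in NEKO and 0.51 in control kidneys (n = 4 each). The fitted difference was -0.23 (standard error 0.22, adjusted p = 0.60 from limma), and single omissions moved it between -0.44 and -0.06, closest to 0 without control replicate 8 and furthest from it without control replicate 4.

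Sesn2 (NM_144907) encodes Sestrin 2, a leucine sensor that restrains mTORC1. Its level was 2.35 and 1.87 in the control females, 2.00 and 2.06 in the control males, 2.41 and 2.18 in the NEKO females and 2.38 and 2.45 in the NEKO males. Control replicate 1 lay among the NEKO mice and the other 3 controls lay below all of them. The log2 difference was 0.29 (standard error 0.12, adjusted p = 0.28 from limma), with a 95% interval from -0.01 to 0.58. It was positive in both sexes, with 0.19 in females and 0.39 in males.

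**Figure D2:**
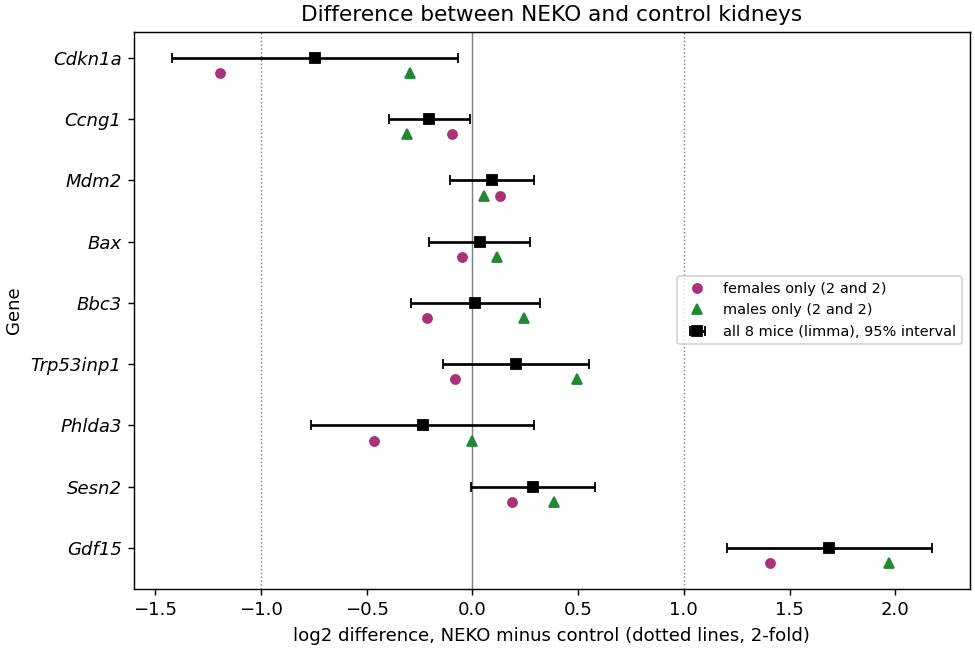
Difference between NEKO and control kidneys for each of the 9 genes (x axis, log2; dotted lines mark 2-fold), with squares and bars for the limma estimate and its 95% interval and with circles and triangles for the differences within females and within males (2 against 2 each, no interval). Gdf15 sits at 1.69, with both sexes to the right of the 2-fold line, and Cdkn1a at -0.74, with the sexes at -1.19 and -0.30.

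The rest of the pathway was read from 8 lists of 142 other genes, and 121 of them were tested. The others had no named probe or were too dim. None of the 121 was called in either direction. At an unadjusted p under 0.05, 9 were higher (7.44%) and 14 lower (11.6%), shares close to those over all features, and their median log2 difference was -0.05. Of the 20 regulators and upstream kinases of p53, 2 were higher and 1 lower by that rule, namely Rchy1 (0.23), a second p53 ubiquitin ligase, Hipk2 (0.32), a p53 kinase, and Ppm1d (-0.19), the phosphatase that switches p53 off.

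Among 52 further p53 targets, 4 were higher and 7 lower at an unadjusted p under 0.05. Those of arrest and DNA repair numbered 22, with a median of -0.10, and 5 were lower and none higher. Btg2, an antiproliferative gene that p53 induces, was at 1.49 and 1.42 in the control females, 1.06 and 0.71 in the control males, 0.85 and 0.62 in the NEKO females and 0.58 and 0.28 in the NEKO males. All but 1 of the NEKO values were below all of the control values, and the log2 difference was -0.59 (standard error 0.13, adjusted p = 0.107 from limma). Gadd45a, a sensor of DNA damage, had a difference of -0.35 (adjusted p = 0.25 from limma) and overlapped between the groups. Fdxr, a mitochondrial reductase, was at -0.29 (adjusted p = 0.20) and Rprm, an inhibitor of the G2 to M step, at -0.54 (adjusted p = 0.20), of which Fdxr did not overlap between the groups. Of the 14 targets in cell death, Aen, an exonuclease, was at -0.25 and Perp, a desmosomal protein, at 0.20, and neither was called.

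Of the 16 targets in metabolism and secretion, 3 were higher and 1 lower at an unadjusted p under 0.05. Ephx1, the microsomal epoxide hydrolase, had the largest difference of the 52, at 1.30 (standard error 0.28, adjusted p = 0.11 from limma), and its groups did not overlap. It stands in the list of NRF2 targets too. Sesn1, the paralogue of Sesn2, went the other way at -0.28 (standard error 0.09, adjusted p = 0.19 from limma). Abhd4 was at 0.29 (adjusted p = 0.25 from limma) and Sesn3 at 0.28 (adjusted p = 0.26). The 3 sestrins therefore did not share a direction, and none was called.

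The other lists of growth arrest showed no call either. Of 5 CDK inhibitors other than p21, Cdkn2b, an inhibitor of CDK4 and CDK6 induced by TGF-beta, had a difference of 0.47 (adjusted p = 0.27 from limma) and did not overlap between the groups, while Cdkn1c, the imprinted inhibitor p57, was at -0.37 (adjusted p = 0.29). Cdkn2a, which yields p16 and p19ARF, was too dim to test. Among 15 growth arrest genes listed apart from the p53 targets, 2 were higher and 2 lower at an unadjusted p under 0.05. Cebpa, a transcription factor of differentiation, was at 0.42 (adjusted p = 0.24 from limma) and Gas1, a membrane protein of growth arrest, at 0.23 (adjusted p = 0.26). Gadd45g was at -0.98 (standard error 0.36, adjusted p = 0.23 from limma), with overlapping groups, and Tob1, an antiproliferative relative of Btg2, at -0.26 (adjusted p = 0.20). In the BCL2 family of 10 tested genes, Bcl2, which holds Bax in check, ran from 0.41 to 0.60 in control and from 0.13 to 0.22 in NEKO kidneys, a difference of -0.32 (standard error 0.07, adjusted p = 0.10 from limma). Bcl2l14 was at -1.05 (adjusted p = 0.22), and for both genes the groups did not overlap.

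Many genes that p21 represses through the DREAM complex report on cycling cells. The list read for them had 19 tested genes and also held the D-type cyclins Ccnd2 (0.27) and Ccnd3 (0.17). At an unadjusted p under 0.05, 2 of the 19 were lower and none higher. They were Mcm5, a part of the replicative helicase, at -0.51 (adjusted p = 0.22 from limma) and Bub1, a kinase of the spindle checkpoint, at -0.44 (adjusted p = 0.24). The median of the list was -0.06, and none was called.

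ATF4 and NRF2 are stress regulators with targets of their own. Of 16 ATF4 targets, 2 were higher and 2 lower at an unadjusted p under 0.05, with a median log2 difference of -0.0018 and none called. Asns, asparagine synthetase, was at 0.31 (adjusted p = 0.15 from limma), Shmt2 at 0.39 (adjusted p = 0.14), and Phgdh and Psat1, both of serine synthesis, at -0.53 (adjusted p = 0.14) and -0.75 (adjusted p = 0.24). Of 17 NRF2 targets, 14 were higher and none lower at that threshold, 10 had no overlap between the groups, and the median was 1.05. Txnrd1, thioredoxin reductase, was called at 1.30 (standard error 0.17, adjusted p = 0.049 from limma). Nqo1, a quinone reductase, was at 2.62 (standard error 0.43, adjusted p = 0.065 from limma), without overlap between the groups. Whether Gdf15 moved with either regulator was not tested.

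**Figure D3:**
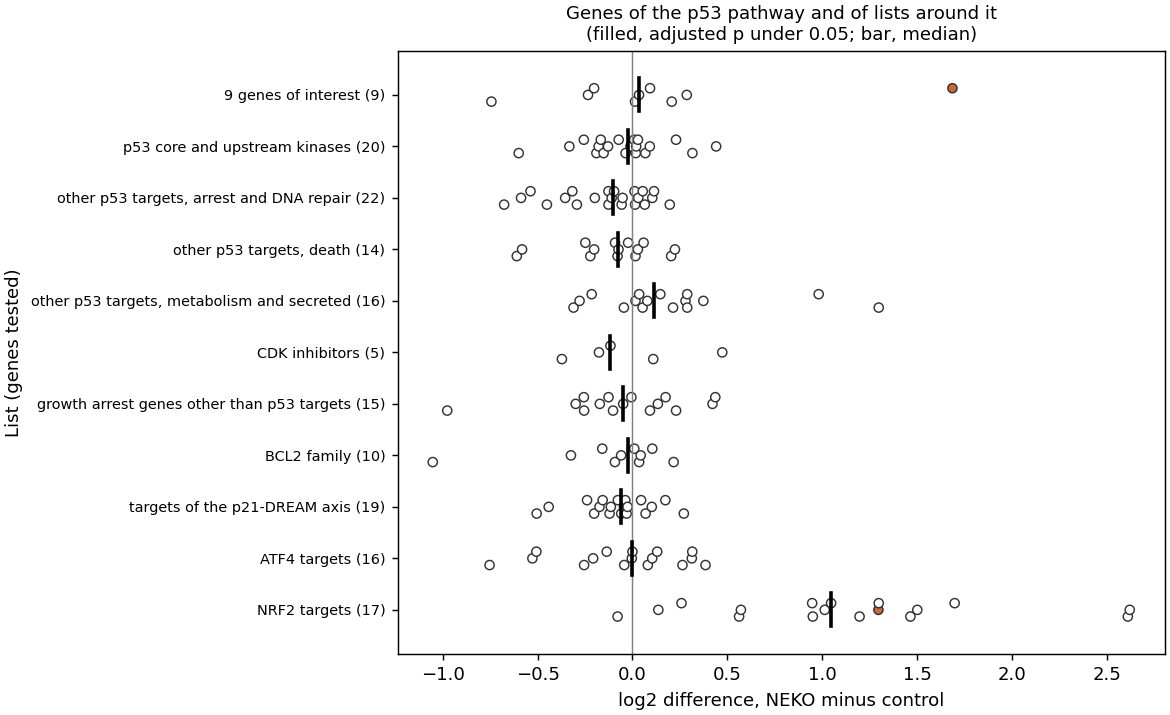
Difference between NEKO and control kidneys (x axis, log2) for every tested gene of the 9 and of 10 lists (y axis, number tested in parentheses), with filled points for an adjusted p under 0.05 and a bar at the median. The points of the p53, arrest, BCL2, cell cycle and ATF4 lists gather around 0, with medians from -0.12 to 0.11, while the NRF2 targets centre on 1.05 and Gdf15 stands alone among the 9.

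The genes with profiles closest to 3 of the 9 were sought among 13510 named genes, by the root mean square difference over the 8 arrays once each gene was centred on its own mean. Closest to Gdf15, a gene chosen for this search after its values were seen, were Tfrc (0.25), Slc24a5 (0.25), Txnrd1 (0.25), Gstp1 (0.28) and Gsr (0.28). Tfrc encodes the transferrin receptor, and Txnrd1, Gstp1 and Gsr belong to thiol and glutathione metabolism. The search takes in the shift between NEKO and control mice, so genes close to Gdf15 were bound to show a similar rise. Their own differences are therefore a description only. They were 1.67 for Tfrc (adjusted p = 0.0075 from limma), 1.69 for Slc24a5 (adjusted p = 0.061) and 1.30 for Txnrd1 (adjusted p = 0.049). For Gstp1 the difference was 1.57 (adjusted p = 0.049) and for Gsr 1.20 (adjusted p = 0.11). Closest to Cdkn1a were Noct (0.25), Cd86 (0.28), Rhou (0.28), Batf3 (0.29) and Fgd2 (0.30), of which Cd86, Batf3 and Fgd2 are known from antigen-presenting cells. The same limit holds for these genes, so their differences, from -0.65 to -0.43, are a description only. None of them was called. Closest to Mdm2 were Sf3b3, Rapgef1, Egln1, Nup153 and Bap1, at 0.03 to 0.04, and Mdm2 itself varied little on the probe used. Among the 9 genes themselves the closest pair was Mdm2 and Bax (0.12).

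**Figure D4:**
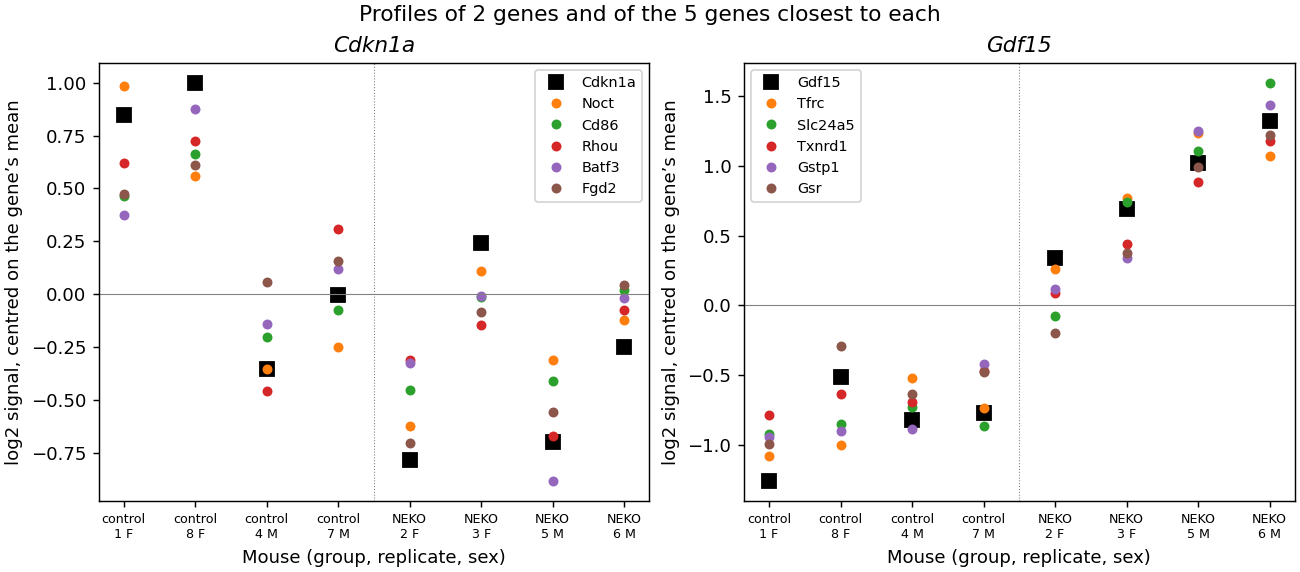
Level in each mouse (x axis: group, replicate number and sex, F or M) of Cdkn1a and Gdf15 (black squares) and of the 5 genes with the closest profiles (coloured points), as log2 signal centred on the mean of each gene over the 8 arrays (y axis). The points of Gdf15 and its neighbours are below 0 in all 4 controls and mostly above 0 in the NEKO mice, and those of Cdkn1a and its neighbours are highest in both control females.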

How the data were processed

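Kidney RNA of 4 NEKO and 4 control mice was read on 1-colour Agilent arrays and extracted with Agilent Feature Extraction, per the file headers. The authors deposited the background-subtracted processed signal of each spot, an intensity not normalized between arrays, and a matrix of log2 values. The deposited log2 values equalled the processed signal minus each array's 75th percentile, centred on the median of each probe, within 0.01.

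Outlier spots (73 to 172 per array) were dropped and spots of a probe averaged. The filter kept probes with at least 6 values that exceeded background clearly on 4 or more of the 8 arrays, and the brightest of them stood for each gene. RefSeq accessions (GRCm38.p6) named 26690 of 41174 probes. NEKO and control arrays were compared in limma 3.58.1 (R 4.3.3) with sex as a term and Benjamini-Hochberg adjustment over all 19593 features. The script was tested on simulated data. The array annotation is on mm9, so coordinates are given for RefSeq promoters alone. The precision is limited by the number of arrays.

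The 9 genes and all lists were chosen with earlier results of these data known. Named from each list were called genes and up to 4 with the lowest p, besides Trp53, Mdm4, Keap1 and Nqo1. Aqp3 and Spp1 were named outside that rule. The 95% intervals are not corrected for several genes.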

Additional observations from a re-analysis of the deposited data

Results flagged for a closer look

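The 9 genes were checked in NEKO and in control mice, 18 sets of 4 values, and in 2 of these 1 mouse lay far from the others, by its gap to the nearest mouse divided by the range of the group. Both were NEKO replicate 3, a female. For Ccng1 it was high, at 2.63 against 2.44 to 2.46 in the other NEKO mice (0.923), and without it the log2 difference of Ccng1 was -0.26. For Bbc3 it was low, at -0.43 against -0.20 to -0.16 (0.853), and without it the difference of Bbc3 was 0.11. About 1 set in 20 would hold such a value by chance, and the cause was not tested.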

How the results depend on the processing

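Gdf15 was the 1 gene called higher, and the count fell to 0 with no filter on dim probes (adjusted p = 0.073 from limma), with no sex term (0.051), under the methods' unpaired comparison with adjustment (0.25) and at an adjusted p under 0.01, and omitting single mice gave 0 to 1. In each of these the Gdf15 difference stayed positive, and over all alternatives, within-sex values included, it lay between 1.41 and 1.97 with an adjusted p from 0.013 to 0.25. The count called lower was 0 and became 1 (Ccng1) under the methods' comparison without adjustment, where 1269 of 19593 features were lower, and 2 (Cdkn1a and Ccng1) at an unadjusted p under 0.05, a setting chosen after seeing the data, as was eBayes with a trend but not robust. Ccng1 no longer separated the groups under normexp, where that count was 0. The interaction count stayed at 0 under every alternative tried. Leaving out the control without K5-Cre is the same fit as leaving out control replicate 1. The groups share no replicate number, and no paired analysis was possible because the numbers run over both groups. Of the tested alternative values for single genes, 184 kept their direction and side of the threshold, 10 lost the call (all for Gdf15) and 4, of uncalled genes, changed sign (Bax and Bbc3). The values within 1 sex have no test, and 15 kept their sign while 3 changed it (Bax, Bbc3 and Trp53inp1, in females). The causes were not tested.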
